A study of Mus musculus with 86 samples.

Results

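Adipocyte marker genes, 10 of the 42807 genes listed, were followed through RNA-seq counts from muscle. They were taken as a named list and grouped by role: 3 lipid droplet proteins (Cidea, Cidec and Plin1), 3 hormones (Adipoq, Lep and Retn) and 4 general markers (Fabp4, Pparg, Cfd and Thrsp). All 10 were listed, and all 10 passed the filter on low counts in both muscles. The tissues were 2 calf muscles, the mostly fast gastrocnemius (GA) and the slower soleus (SO), of male C57BL/6N mice supplied at 10 weeks of age. Dexamethasone (DEX), a synthetic glucocorticoid, was injected at 25 mg/kg daily for 10 days into all mice but the non-treated ones (NT), which had buffer injections. Besides DEX, 6 groups were gavaged with an extract of peony and liquorice root (JGT) and 1 with 200 mg/kg of resveratrol (RSV), a plant polyphenol. JGT02, JGT03 and JGT04 held more peony, equal parts and more liquorice, and each was given at 100 and at 400 mg/kg. DEX and NT mice were gavaged with buffer, while extracts and resveratrol were given in a cellulose suspension, so a treatment and its vehicle cannot be told apart. Each muscle had 43 libraries, with 4 mice in the DEX and JGT04 400 mg/kg groups and 5 in each of the other 7. The labels name no genetic change in any group.

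White adipocytes keep triglyceride in 1 large droplet. Plin1 coats that droplet and guards it against lipases, and Cidec and Cidea, of the CIDE family, let small droplets pass lipid to larger ones. Adipocytes also secrete adiponectin (Adipoq), leptin (Lep), which reports fat stores to the brain, resistin (Retn) and the complement protease adipsin (Cfd). Pparg is the nuclear receptor that drives fat cell differentiation, Fabp4 carries fatty acids and is also made by capillary endothelium and macrophages, and Thrsp (Spot 14) acts in fatty acid synthesis. Muscle itself has few adipocytes, which lie between the fibres and along its nerves and vessels. Glucocorticoids are known to favour adipocyte differentiation and to change fat storage. In a whole muscle, more adipocytes and more RNA per adipocyte cannot be told apart.

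The promoters of 3 of these genes are shown because Cidec, Adipoq and Lep had the largest fold changes in SO below. The sequences are from RefSeq (GRCm38.p6), each 250 bases before to 50 after an annotated start, 5′ to 3′. Capitals mark the motifs searched on both strands: the palindrome TTGCGCAA bound by C/EBP factors, AGGTCA, the half-site of PPAR and related receptors, TGTTCT, a half-site of the glucocorticoid receptor, and CCAAT. The Lep window is chr6:29059971-29060270 on the plus strand, the Adipoq window chr16:23146286-23146585 on the plus strand, and the first of 2 Cidec windows chr6:113435711-113436010 on the minus strand.
Lep: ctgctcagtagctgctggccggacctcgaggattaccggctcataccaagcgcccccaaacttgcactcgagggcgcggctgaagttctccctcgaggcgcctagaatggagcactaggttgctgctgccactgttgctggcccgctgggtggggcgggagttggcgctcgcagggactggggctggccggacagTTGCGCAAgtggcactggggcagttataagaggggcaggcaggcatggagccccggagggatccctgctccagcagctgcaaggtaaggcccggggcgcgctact
Adipoq: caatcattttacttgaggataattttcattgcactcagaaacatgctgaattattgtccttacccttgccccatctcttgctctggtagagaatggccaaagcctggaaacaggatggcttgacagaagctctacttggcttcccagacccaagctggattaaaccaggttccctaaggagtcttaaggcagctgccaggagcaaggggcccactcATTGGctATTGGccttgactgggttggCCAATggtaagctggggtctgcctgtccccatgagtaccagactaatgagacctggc
Cidec: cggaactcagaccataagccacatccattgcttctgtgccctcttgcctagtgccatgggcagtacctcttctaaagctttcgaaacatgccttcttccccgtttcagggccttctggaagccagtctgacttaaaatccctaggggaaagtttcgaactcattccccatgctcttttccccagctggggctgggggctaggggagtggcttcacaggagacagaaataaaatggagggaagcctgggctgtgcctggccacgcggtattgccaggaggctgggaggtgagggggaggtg
The Lep window held TTGCGCAA once, 55 bases before the start, and 60 of 32851 promoters of this length (0.183%) hold it. The Adipoq window held CCAAT 3 times, a motif found in 37.4% of promoters. Neither Cidec window held any of the 4 motifs. Windows of 8 of the 10 members were read, all but Cidea and Fabp4. TGTTCT, found in 19.0% of all promoters, was in none of the windows read. AGGTCA, found in 16.3%, was in 2 of the 3 windows of Pparg and in no other window read.

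Total counts per library were 18.8 to 34.6 M counts. Values below are CPM, the usual per-library scaling of counts to a common total (with TMM factors within a muscle). In 3 libraries, which earlier results of these data set apart, the fibre genes departed from the rest: mouse 1 of JGT02 100 mg/kg in GA, and in SO mouse 5 of JGT02 100 mg/kg with mouse 1 of JGT02 400 mg/kg. The slow myosin gene Myh7 stood at 26.4 and 14.0 CPM in the last 2 of these, against 4067 to 8931 CPM in the other 41 SO libraries. These Myh7 values are on a scale set over both muscles. None of the 3 is a DEX or NT library. They touch DEX against NT through what the groups share in the fit: the filter on genes, the scaling, the spread and the adjustment. All p-values across genes are from edgeR's quasi-likelihood test with Benjamini-Hochberg adjustment over all genes tested, 14484 in GA and 14811 in SO, with 0.05 as the threshold.

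Per kilobase of exon, the level ran over a wide range among the members. In GA the DEX libraries held 70.7 ± 10.8 CPM per kb of Cfd and 21.2 ± 3.27 of Adipoq (SD, n = 4). Lep stood at 1.69 ± 0.586 CPM per kb, Pparg at 1.34 ± 0.0797 and Cidea, the lowest, at 1.05 ± 0.248 in the same libraries. In SO the DEX libraries held 179.8 ± 83.9 CPM per kb of Cfd and 50.5 ± 26.2 of Adipoq, and the lowest member was Pparg at 2.90 ± 1.01. In NT libraries of GA Cfd (37.7 ± 11.1, n = 5) had the highest value per kb. In SO of NT mice Fabp4 (44.3 ± 2.40) and Cfd (38.8 ± 19.0) did not differ beyond their spread. The annotated exons of Fabp4 together cover its whole gene span of 4489 bases, so its level per kb may be understated. Its place against Cfd is therefore not settled. Without length scaling, Fabp4 stood above Cfd in GA of NT mice (124 ± 6.81 against 34.7 ± 10.2 CPM). Cidec, level with Thrsp in SO of DEX mice (20.3 ± 11.5 against 20.4 ± 12.5 CPM per kb), stood well under it in SO of NT mice (2.19 ± 1.25 against 5.00 ± 1.13).

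In the gastrocnemius, 8 of the 10 genes were higher after DEX, by 1.69- to 3.97-fold. Over all genes 4.31% were called higher. The 3 droplet genes and the 3 hormones all passed, with Cidec changing most, while Fabp4 and Cfd among the 4 general markers did not. The median log2 fold change was 1.28 over the members and -0.01 over all genes tested.

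Among the GA droplet genes, Cidec (chr6:113424634-113435760, minus strand) had 14.2, 14.7, 15.4 and 20.9 CPM in DEX libraries, against 1.94, 5.37, 4.34, 3.57 and 5.22 CPM in NT libraries. Its groups did not overlap, and the log2 fold change was 1.99 ± 0.29 (SE), an adjusted p of 8.18e-06 in edgeR. Plin1 (chr7:79720218-79732903, minus strand) had 20.4, 18.9, 22.2 and 24.3 CPM in DEX libraries, against 5.53, 11.6, 8.42, 7.97 and 9.09 CPM in NT libraries. Every DEX library lay above every NT library (log2 1.33 ± 0.27, adjusted p = 0.00126 in edgeR). Cidea had 1.32, 0.996, 0.888 and 1.48 CPM in DEX libraries, against 0.352, 0.381, 0.524, 0.577 and 0.279 CPM in NT libraries. This is the least abundant member in GA, at 8 to 44 counts per library, and its groups did not overlap either (log2 1.47 ± 0.25, adjusted p = 7.9e-05 in edgeR).

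The GA hormones moved by similar amounts. Adipoq (chr16:23146536-23158028, plus strand) had 28.2, 23.6, 31.2 and 34.2 CPM in DEX libraries, against 5.39, 13.6, 10.3, 10.1 and 10.2 CPM in NT libraries. The lowest DEX library lay above the highest NT library, and the change was 2.95-fold (log2 1.56 ± 0.29, adjusted p = 0.000286 in edgeR). Lep (chr6:29060220-29073877, plus strand), the gene with the C/EBP palindrome shown above, had 4.89, 3.81, 8.41 and 5.59 CPM in DEX libraries, against 0.916, 3.15, 1.65, 1.59 and 2.40 CPM in NT libraries. The groups stood apart by less than for Adipoq (log2 1.54 ± 0.40, adjusted p = 0.0105 in edgeR), and without DEX mouse 3 the adjusted p was 0.0659. Retn (chr8:3655770-3660110, plus strand) had 10.9, 12.2, 12.2 and 12.5 CPM in DEX libraries, against 3.59, 6.26, 5.16, 5.52 and 4.91 CPM in NT libraries, a narrow DEX group well above NT (log2 1.23 ± 0.30, adjusted p = 0.00584 in edgeR).

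Among the general markers in GA the log2 change lay between 0.09 and 1.02. Thrsp (chr7:97412938-97417730, minus strand) averaged 23.8 ± 3.17 CPM in DEX libraries and 11.7 ± 1.22 CPM in NT libraries, and Pparg (chr6:115360951-115490399, plus strand) 3.94 ± 0.235 and 2.33 ± 0.326 CPM (SD, n = 4 and 5). Both passed (log2 1.02 ± 0.32 with adjusted p = 0.0364 for Thrsp, 0.76 ± 0.23 with adjusted p = 0.0321 for Pparg, edgeR), and both lost the call when single libraries were left out, Thrsp without any but NT mouse 2 and Pparg without any but NT mice 4 and 5. With no filter on low counts the adjusted p was 0.0552 for Thrsp and 0.052 for Pparg. Cfd (chr10:79890853-79892655, plus strand) had 57.8, 66.7, 57.7 and 78.7 CPM in DEX libraries, against 17.997, 45.1, 38.5, 38.8 and 33.2 CPM in NT libraries. These groups did not overlap, yet the test missed the threshold (log2 0.91 ± 0.31, adjusted p = 0.0592 in edgeR, 0.0355 in DESeq2 and 0.0204 without the 3 libraries that stood apart). Fabp4 (chr3:10204088-10208576, minus strand) averaged 131 ± 12.1 CPM in DEX libraries and 124 ± 6.81 CPM in NT libraries, and these overlapped (log2 0.09, 95% interval -0.20 to 0.38, adjusted p = 0.812 in edgeR).

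**Figure D1:**
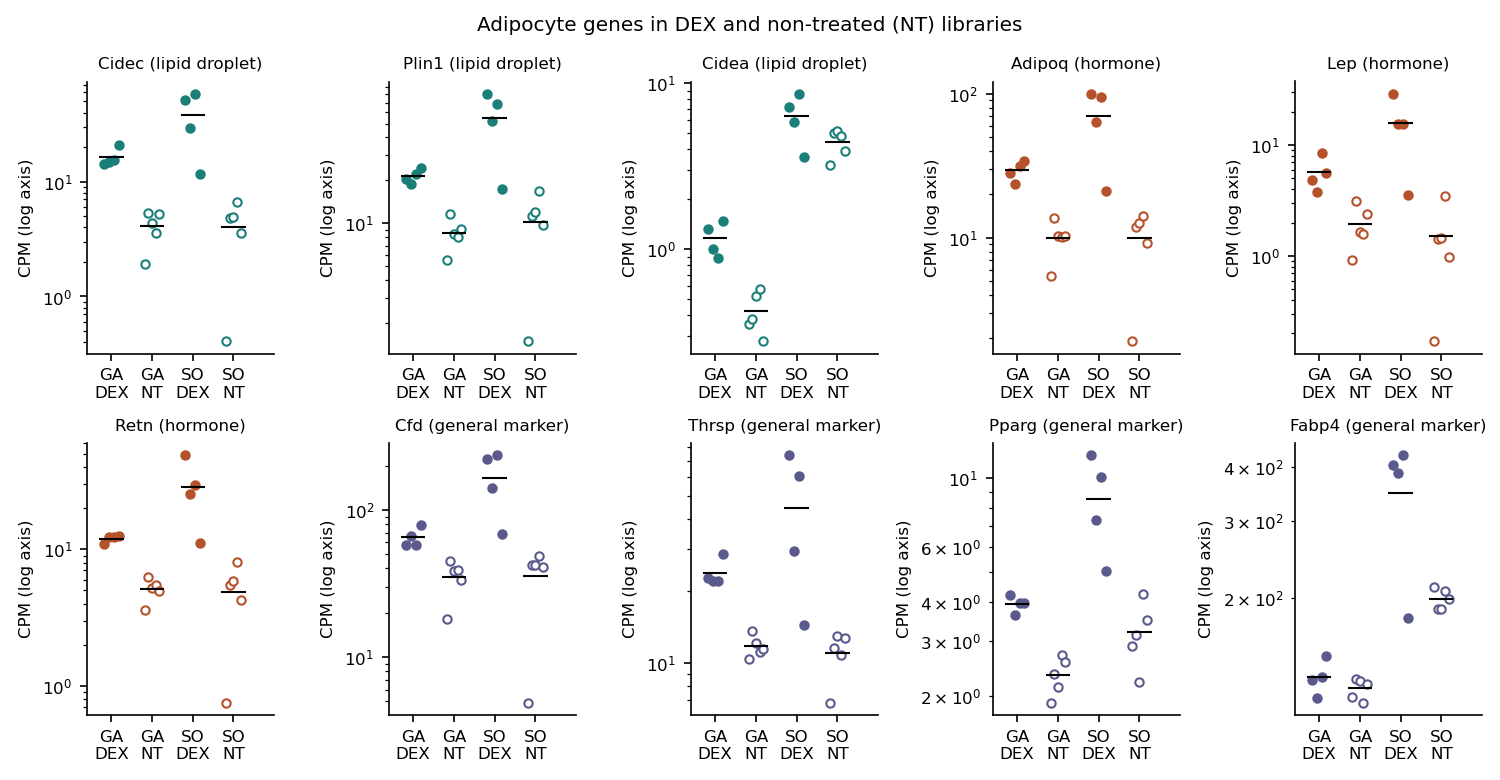
CPM on log axes for each of the 10 genes, with DEX libraries as filled and NT libraries as open points (4 and 5 per muscle) and a line at the group mean. In SO 1 NT library and 1 DEX library lie under the others of their groups for most genes, at 1.91 and 21.1 CPM for Adipoq.

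In the soleus 9 of the 10 genes were higher after DEX, by 1.75- to 10.6-fold. Over all genes 11.3% were called higher, and the median log2 fold change was 2.31 over the members and 0.05 over all genes. Lep, Cidec and Adipoq had the largest changes, and Cidea alone did not pass. The libraries were spread more widely than in GA.

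Adipoq had 99.8, 63.8, 94.5 and 21.1 CPM in SO of DEX mice, against 1.91, 11.9, 12.6, 14.2 and 9.17 CPM in SO of NT mice. DEX mouse 4 lay far under the other DEX mice and still above every NT library, and NT mouse 1 lay far under the other NT mice (log2 2.81 ± 0.63, adjusted p = 0.00222 in edgeR). Lep had 29.0, 15.5, 15.6 and 3.52 CPM in DEX libraries, against 0.17, 1.43, 1.46, 3.48 and 0.982 CPM in NT libraries. The lowest DEX library of Lep lay just above the highest NT library (log2 3.40 ± 0.78, 10.6-fold, adjusted p = 0.00261 in edgeR), and the lowest value rests on 5 counts. Retn averaged 28.8 ± 15.7 CPM in DEX libraries and 4.89 ± 2.71 CPM in NT libraries (log2 2.56 ± 0.66, adjusted p = 0.00647 in edgeR).

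Of the droplet genes in SO, Cidec had 51.6, 29.4, 58.2 and 11.7 CPM in DEX libraries, against 0.408, 4.84, 4.92, 6.63 and 3.55 CPM in NT libraries, with no overlap (log2 3.21 ± 0.65, adjusted p = 0.000833 in edgeR). Plin1 averaged 54.7 ± 27.6 CPM in DEX libraries and 10.3 ± 5.55 CPM in NT libraries (log2 2.41 ± 0.65, adjusted p = 0.00803 in edgeR). Cidea behaved otherwise. It had 7.22, 5.81, 8.63 and 3.60 CPM in DEX libraries, against 3.20, 5.00, 5.14, 4.79 and 3.93 CPM in NT libraries, and the groups overlapped (log2 0.52 ± 0.30, adjusted p = 0.215 in edgeR). Without the 3 libraries that stood apart the same log2 change of 0.52 passed, with an adjusted p of 0.0116 in edgeR.

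The general markers in SO all passed. Cfd averaged 166 ± 77.4 CPM in DEX libraries and 35.8 ± 17.5 CPM in NT libraries (log2 2.21 ± 0.63, adjusted p = 0.0118 in edgeR). Thrsp averaged 44.5 ± 27.4 and 10.9 ± 2.47 CPM (log2 2.02 ± 0.44, adjusted p = 0.00152 in edgeR), and Pparg 8.56 ± 2.99 and 3.20 ± 0.744 CPM (log2 1.42 ± 0.39, adjusted p = 0.0095 in edgeR), DEX before NT. Fabp4 was again the least changed of the 4, at 404, 387, 426 and 179.5 CPM in DEX libraries, against 212, 189, 188, 208 and 199 CPM in NT libraries. DEX mice 1 to 3 lay well above NT, and DEX mouse 4 lay below every NT library (log2 0.81 ± 0.26, adjusted p = 0.0224 in edgeR). Without DEX mouse 1 or DEX mouse 3 the Fabp4 call was lost, at adjusted p = 0.0544 and 0.0716 in edgeR. Leaving out both NT mouse 1 and DEX mouse 4 (chosen with those values in view) left the count in SO at 9.

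**Figure D2:**
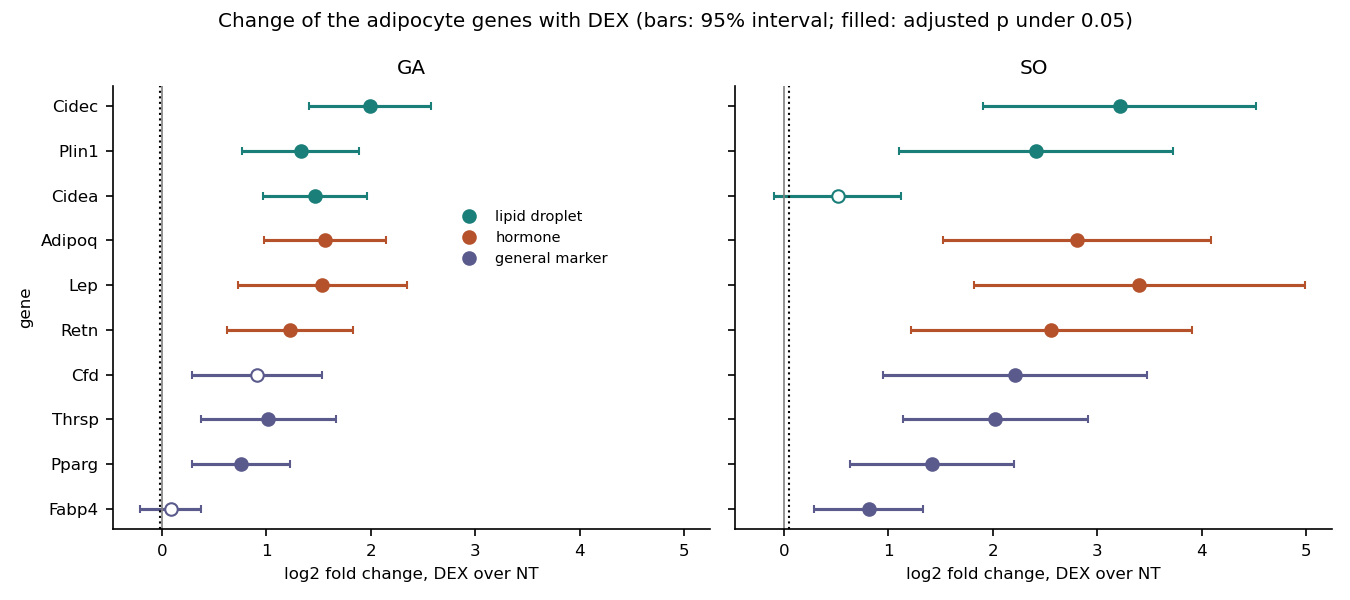
Log2 fold change of DEX over NT with its 95% interval for each gene in GA and SO, filled where the adjusted p is under 0.05, with a dotted line at the median of all genes (-0.01 in GA, 0.05 in SO). In both muscles Pparg and Fabp4 lie lowest among the general markers, and Cidea in SO lies under the other droplet genes.

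By role, the droplet genes changed by log2 1.33 to 1.99 in GA and 0.52 to 3.21 in SO, the hormones by 1.23 to 1.56 and 2.56 to 3.40, and the general markers by 0.09 to 1.02 and 0.81 to 2.21. Whether a gene changed apart from Adipoq was tested on its ratio to Adipoq, as log2 of CPM with 0.5 added, by a two-sided exact permutation test over the libraries, with a smallest possible p of 0.00794. Of the 18 ratios (9 genes by 2 muscles) 12 had an adjusted p under 0.05, adjusted over the 18, and 10 of the 12 were lower after DEX.

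Of the ratios that passed, that of Cidec alone was higher after DEX, in both muscles. In GA it was -0.83 ± 0.18 in DEX libraries and -1.19 ± 0.18 in NT libraries, and in SO -0.89 ± 0.17 and -1.24 ± 0.13 (log2, SD, n = 4 and 5). The differences were 0.36 and 0.35, with exact permutation p of 0.0317 in GA and 0.0238 in SO. Its groups overlapped in both muscles. The adjusted p of 0.0476 in GA and 0.0429 in SO was 0.0571 and 0.0476 with a pseudocount of 0.1 and 0.051 in both with a pseudocount of 1. The other droplet coat gene, Plin1, lost on Adipoq, by -0.25 in GA (exact permutation p = 0.0238) and -0.31 in SO (exact permutation p = 0.0159). The SO call of Plin1 was lost with a pseudocount of 0.1 (adjusted p = 0.0595). Cidea had the largest difference of the 18, at -2.33 in SO with no overlap (exact permutation p = 0.00794, adjusted p = 0.0357). In GA the Cidea ratio differed by -0.71 (exact permutation p = 0.0476, adjusted p = 0.0659), and its adjusted p was 0.0286 with a pseudocount of 1.

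Among the hormones the ratios of Lep and Retn to Adipoq did not pass in either muscle. The Lep ratio differed by -0.20 in GA and 0.18 in SO between DEX and NT libraries (exact permutation p = 0.286 and 0.524), and its sign turned in SO with a pseudocount of 1 (-0.07). Among the general markers, Fabp4 fell most against Adipoq, by -1.47 in GA and -2.03 in SO, with no overlap in either (exact permutation p = 0.00794 in both). The Thrsp ratio fell by -0.57 and -1.01 (exact permutation p = 0.0159 in both) and that of Pparg by -0.90 and -1.51 (exact permutation p = 0.0159 and 0.0317). With a pseudocount of 0.1 the SO call of Pparg was lost (adjusted p = 0.0595). For Cfd the ratio passed in GA at -0.61 (exact permutation p = 0.00794), and in SO the value was -0.39 (exact permutation p = 0.0794). The ratios were also taken to the mean log2 level of Adipoq, Fabp4, Cfd and Pparg, leaving out the gene being tested where it is among them. On that base Adipoq, Cidec, Plin1 and Retn were higher after DEX in GA, by log2 0.99, 1.11, 0.50 and 0.36 (exact permutation p = 0.00794 in each). GA Cidea (0.04, exact permutation p = 0.81) and GA Lep (0.55, exact permutation p = 0.0714, adjusted p = 0.102) did not pass. In SO Adipoq (1.31), Cidec (1.33), Lep (1.17) and Retn (0.73) were higher and Cidea lower (-1.35), with exact permutation p adjusted over 20 ratios of 0.0176, and 0.0433 for Lep and Retn, while Plin1 did not pass (0.67, adjusted p = 0.0855). Fabp4 stayed lower on that base, by -0.97 in GA and -1.40 in SO (exact permutation, adjusted p = 0.0176 in both). Thrsp (0.18 in GA and -0.03 in SO), Pparg (-0.21 and -0.70) and Cfd (0.18 and 0.79) did not pass in either muscle. GA Plin1 was thus lower against Adipoq and higher on the second base. All 18 differences from Adipoq kept their sign when any 1 library was left out, and 0 to 10 then passed, the smallest p for 4 against 4 libraries being 0.0286.

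Taking the 8 groups that received DEX together against NT used more libraries. In GA 9 members were higher (10.3% of all genes were), all but Fabp4 (log2 0.15 ± 0.10, adjusted p = 0.36 in edgeR), and in SO 9 members (9.05% of all genes), all but Cidea (log2 0.59 ± 0.22, adjusted p = 0.0602 in edgeR, 0.0349 in DESeq2 and 0.000106 in edgeR without the 3 libraries that stood apart). Cidea passed too without SO DEX mouse 4 (adjusted p = 0.0398, edgeR). Cfd joined the called genes in GA at log2 0.64 ± 0.23 (adjusted p = 0.0452 in edgeR), a call lost without NT mouse 1, 3, 4 or 5, DEX mouse 2 or 4, JGT03 100 mg/kg mouse 3 or 5, JGT04 100 mg/kg mouse 1, 2 or 3, JGT04 400 mg/kg mouse 1 or RSV mouse 3 or 4, at adjusted p up to 0.202 without NT mouse 1. In SO the Cfd call was lost without NT mouse 1 (adjusted p = 0.0596) and the Fabp4 call without NT mouse 2, 3 or 5 (adjusted p = 0.0556 to 0.0589, edgeR). The group mean of NT was the lowest of the 9 for every member in both muscles.

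The muscles of NT mice were compared on a scale set over both. The labels do not say whether GA and SO of 1 number come from the same mouse, and the fit took them as separate. Of the 10, Cidea and Fabp4 were higher in SO of NT mice than in GA (22.4% of all genes were higher in SO). Cidea averaged 4.31 ± 0.805 CPM in SO and 0.430 ± 0.126 CPM in GA, 9.95-fold (log2 3.31 ± 0.30, adjusted p = 3.09e-15 in edgeR, n = 5 each). Fabp4 averaged 194.4 ± 10.6 CPM in SO and 125.9 ± 6.43 CPM in GA (log2 0.63 ± 0.20, adjusted p = 0.00755 in edgeR). Adipoq stood at 9.74 ± 4.75 CPM in SO and 10.1 ± 2.98 CPM in GA, a log2 difference of -0.05 with a 95% interval of -1.002 to 0.892. The interval of Lep was as wide as -1.75 to 0.86. With only the groups compared in the fit Pparg passed too (log2 0.42, adjusted p = 0.0408 in edgeR).

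The change with DEX was not shown to differ between the muscles for any member. None of the 10 interactions passed in edgeR, where 8.36% of all genes did in either direction, and 3 had an unadjusted p under 0.05 (Lep, Cidea and Fabp4, named after their values were seen). The log2 difference of SO minus GA was 1.85 for Lep (95% interval 0.06 to 3.63, adjusted p = 0.186), -0.97 for Cidea (-1.80 to -0.14, adjusted p = 0.129) and 0.71 for Fabp4 (0.107 to 1.303, adjusted p = 0.128). DESeq2 also called 0. Without the 3 libraries that stood apart Cidea (-1.01, adjusted p = 0.00761) and Fabp4 (0.67, adjusted p = 0.0476) passed, and without SO DEX mouse 4 Fabp4 passed (0.87, adjusted p = 0.0406, edgeR).

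The treatments asked whether extracts or resveratrol changed what DEX did. In GA 0 of 70 tests of a member against DEX passed in edgeR, with 10 at an unadjusted p under 0.05, and DESeq2 also called 0. Of all genes 10.2%, 0.808%, 0.0207%, 0.677%, 1.38%, 2.04% and 1.37% were called in either direction in JGT02 100, JGT02 400, JGT03 100, JGT03 400, JGT04 100, JGT04 400 mg/kg and RSV. These 7 comparisons share the 4 DEX libraries. The JGT02 100 mg/kg group holds a library that stood apart in fibre genes, and its share without that library is not given here. Adipoq lay between 14.5 and 61.3 CPM over the 34 treated GA libraries (median 32.4), against 23.6 to 34.2 CPM in DEX libraries, and all 34 lay above the highest NT library.

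Lep lay above DEX in all 7 treated GA groups, as did Plin1 and Fabp4 by smaller amounts. The mean of Lep was 9.05 ± 3.80 and 8.67 ± 3.11 CPM in JGT02 at 100 and 400 mg/kg, 9.88 ± 5.56 and 10.9 ± 1.80 in JGT03, 11.4 ± 2.09 and 10.7 ± 5.73 in JGT04 and 9.94 ± 2.18 in RSV, against 5.68 ± 1.97 CPM in DEX (SD, n = 4 or 5). The log2 differences from DEX ran from 0.61 to 1.00, and none passed. The smallest adjusted p in edgeR was 0.213, for JGT04 at 100 mg/kg (log2 1.00 ± 0.38), which passed without the 3 libraries that stood apart (adjusted p = 0.0364). When only the 2 groups compared entered the fit, 8 tests passed in edgeR, among them Lep in JGT03 400 mg/kg, JGT04 100 mg/kg and RSV (adjusted p = 0.015, 0.0103 and 0.04) and Plin1 in JGT03 400 mg/kg (log2 0.61, adjusted p = 0.00379). Plin1 and Fabp4 too lay above DEX in all 7 treatments of GA, by log2 0.13 to 0.61 and 0.01 to 0.21. By log2 Retn did as well (0.004 to 0.69), though its mean in JGT03 100 mg/kg was 11.95 CPM, against 11.96 CPM in DEX.

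In SO 0 of 70 tests passed in edgeR, with 8 at an unadjusted p under 0.05. Of all genes 8.82%, 17.1%, 8.49%, 3.06%, 8.95%, 4.58% and 12.7% were called in either direction, in the same order of treatments. Each of the JGT02 groups of SO holds a library that stood apart in fibre genes. Adipoq ran from 6.22 to 166 CPM over the 34 treated SO libraries (median 74.4), against 21.1 to 99.8 CPM in DEX libraries. Its group mean was lowest in JGT03 400 mg/kg, at 35.5 ± 39.4 CPM, where mouse 3 had 104 CPM and the other 4 mice 6.22 to 33.1 CPM, and highest in JGT04 400 mg/kg, at 114 ± 39.9 CPM. Neighbouring groups in this order did not differ beyond their spread. Thrsp was below DEX in all 7 treatments, by log2 -0.29 to -1.32, and came nearest to the threshold in JGT03 400 mg/kg, where it averaged 17.8 CPM, against 44.5 CPM in DEX (log2 -1.32 ± 0.43, adjusted p = 0.0731 in edgeR). DESeq2 called that test (adjusted p = 0.04), as did edgeR without the 3 libraries that stood apart (0.0124), without SO DEX mouse 4 (0.0469) and without mouse 3 of JGT03 400 mg/kg (log2 -1.68, adjusted p = 0.0343). With the mouse number as a replicate block its adjusted p was 0.0466. In JGT02 400 mg/kg Thrsp passed without SO DEX mouse 4 (adjusted p = 0.0485 in edgeR) and Fabp4 without mouse 3 of its own group (adjusted p = 0.0499). Cfd in JGT03 400 mg/kg passed without mouse 3 of JGT03 400 mg/kg (log2 -2.43, adjusted p = 0.0257), against a log2 change of -1.35 with all libraries (adjusted p = 0.195).

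No difference between the doses passed for any member with all groups in the fit. Of 60 tests of 400 against 100 mg/kg 0 passed in edgeR and in DESeq2, with 5 at an unadjusted p under 0.05 and a smallest adjusted p of 0.269 (Pparg, JGT02 in SO). With only the 2 groups compared in the fit, Cfd of JGT03 in GA passed (log2 0.96, adjusted p = 0.0381 in edgeR). Of all genes 16.2%, 0.0414% and 0.0621% were called in either direction in GA for JGT02, JGT03 and JGT04, and 14.1%, 0% and 0% in SO. The 3 libraries that stood apart are all in the JGT02 groups, and shares without them are not given here. The log2 difference of Adipoq between doses lay between -0.27 and 0.39 in GA, and between -1.09 and 0.52 in SO. The 5 were all of JGT03. In GA the 95% intervals of Cfd (0.37 to 1.56) and Retn (0.13 to 1.23) lay above 0, and the Cfd groups did not overlap. In SO the 95% intervals of Thrsp (-1.85 to -0.20), Retn (-2.65 to -0.20) and Pparg (-1.62 to -0.15) lay below 0.

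**Figure D3:**
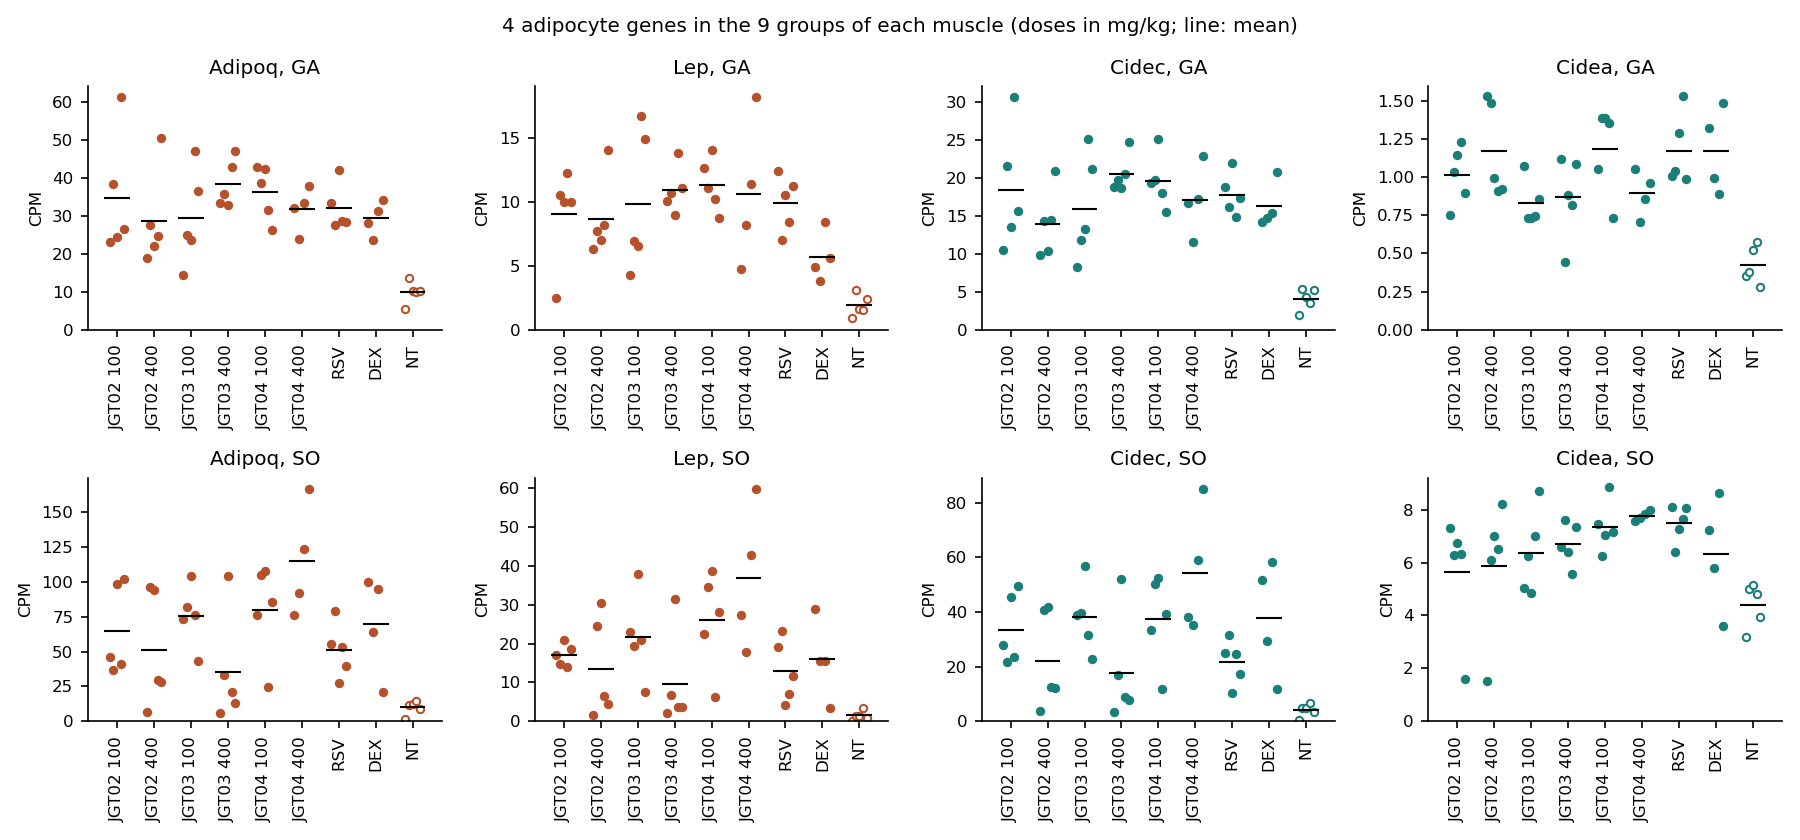
CPM of Adipoq, Lep, Cidec and Cidea in every library of the 9 groups, GA above and SO below, with a line at the group mean and NT open. NT is the lowest group mean in all 8 panels, and the 2 SO libraries low in Cidea (1.62 and 1.52 CPM) are those low in Myh7.

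The ratio to Adipoq was also compared between the 34 treated libraries together and DEX, a test added after the data were seen. It took the 34 libraries as a single set without regard to their 7 groups, so its p-values concern no single treatment. Cfd had a lower ratio in both muscles. In GA its log2 ratio was 0.66 ± 0.32 in treated libraries and 1.14 ± 0.26 in DEX libraries, and in SO 0.79 ± 0.27 and 1.31 ± 0.25 (SD, n = 34 and 4). Of the treated libraries 26 in GA and 31 in SO lay below the lowest DEX library, and none lay above the highest. The differences were -0.48 and -0.52 (exact permutation p = 0.00554 in GA and 0.0016 in SO, adjusted over 18 ratios 0.0341 and 0.0288), and all 7 group means lay below DEX in each muscle.

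In GA the ratio of Lep was higher in treated libraries, at -1.70 ± 0.37 against -2.31 ± 0.32 in DEX libraries (difference 0.61, exact permutation p = 0.00569, adjusted p = 0.0341), with 28 of 34 above the highest DEX library. The Plin1 ratio was higher by 0.19 (exact permutation p = 0.00947, adjusted p = 0.0426). In SO the Lep ratio differed by 0.33 (exact permutation p = 0.131). Libraries fell into 3 sets in listed order, which earlier results of these data noted and the labels do not name as batches. Within the set that holds DEX, the Cfd difference was -0.44 in GA (exact permutation p = 0.0168, 23 treated libraries) and -0.39 in SO (exact permutation p = 0.0606, 8 treated libraries), the Lep difference in GA 0.58 (exact permutation p = 0.00792) and the Plin1 difference in GA 0.16 (exact permutation p = 0.0341). The 8 treated SO libraries in the set with DEX were all of JGT02, so that SO value covers no other extract and no resveratrol. They include both SO libraries that stood apart in fibre genes. The 23 treated GA libraries held no RSV library. With 1 DEX library left out in turn the Cfd differences lay between -0.57 and -0.37 in GA, and between -0.58 and -0.40 in SO.

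**Figure D4:**
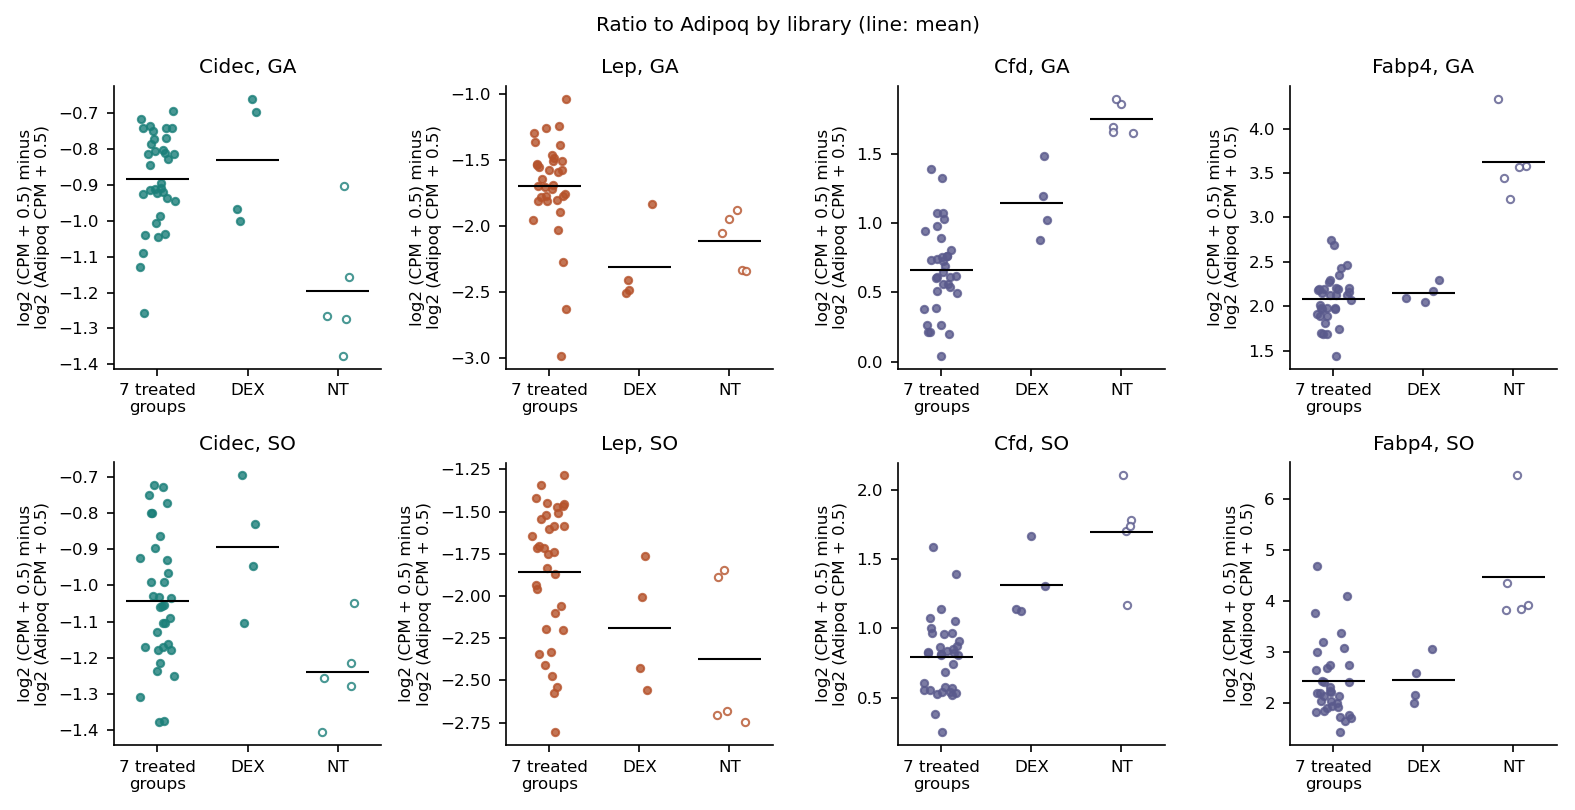
Log2 ratio of Cidec, Lep, Cfd and Fabp4 to Adipoq, with 0.5 CPM added to both, in the 34 treated, 4 DEX and 5 NT libraries of GA (above) and SO (below), with a line at the mean. Cfd falls from right to left in both muscles (SO means 0.79 treated, 1.31 DEX, 1.70 NT), and Cidec is lower in NT than in DEX.

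Inside the groups the members varied together, with Cidea apart. As deviations of log2 CPM (prior count of 2) from the group mean over the 43 libraries of a muscle, Adipoq had an SD of 0.435 in GA and 1.02 in SO. Cidec followed it at r = 0.937 and rho = 0.915 in GA and at r = 0.983 and rho = 0.967 in SO, and Plin1 at r = 0.948 and 0.972 (rho 0.93 and 0.953). The lowest r of the 8 genes other than Cidea was 0.721 in GA (Pparg, rho 0.682) and 0.81 in SO (Fabp4, rho 0.763). Each of these 16 relations, for r and for rho, had a permutation p of 1e-05, the smallest that 100000 permutations can give, and 1.13e-05 after adjustment over 18 relations. Without the 2 libraries farthest from the median of Adipoq, r of Cidec was 0.92 and 0.984.

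Cidea was not shown to follow Adipoq. Its r was 0.102 in GA (rho 0.174, permutation p = 0.515 and 0.265) and 0.264 in SO (rho 0.0847, permutation p = 0.0868 and 0.588), and -0.0293 in SO without the 2 farthest libraries. Its lowest values in SO, 1.62 and 1.52 CPM, were in the 2 libraries low in Myh7, against 3.20 to 8.85 CPM in the other 41. One of the 2 had 102 CPM of Adipoq and the other 7.03 CPM. Cidea was thus not shown to vary with Adipoq in either muscle. In GA it had only 8 to 44 counts per library, which limits what its r can show. Which cells made the Cidea RNA was not tested. Fabp4, whose SD inside the groups was 0.22 in GA and 0.4 in SO, moved with Adipoq on a smaller scale. Library by library, Adipoq in SO did not follow Adipoq in the GA library of the same treatment and mouse number (r = 0.0489, rho = -0.084, permutation p = 0.755 and 0.59, n = 43, and r = 0.0932 without the 2 farthest).

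**Figure D5:**
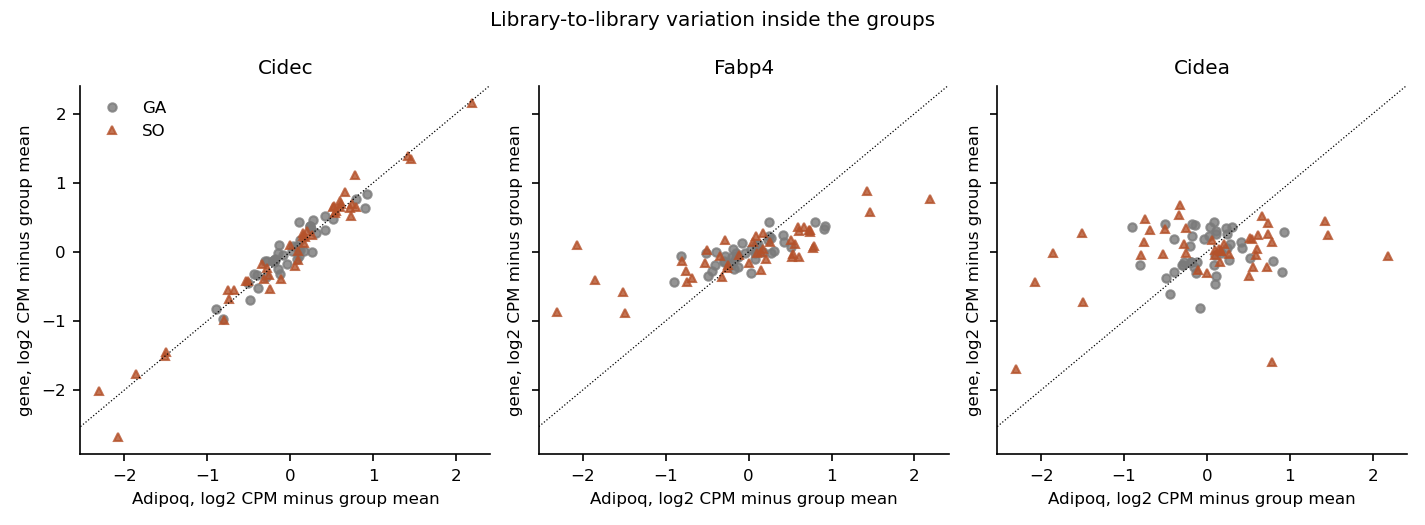
Deviation of log2 CPM from the group mean for Cidec, Fabp4 and Cidea (y) against that of Adipoq (x), 43 GA libraries as circles and 43 SO libraries as triangles, with a dotted line of equal deviation. Cidec lies along the line (r = 0.937 and 0.983), Fabp4 spreads less than Adipoq, and Cidea shows no clear relation to it (r = 0.102 and 0.264).

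The genes most like Adipoq inside the groups, among 12148 in GA and 12389 in SO with a mean of at least 1 CPM, were Aoc3 (r = 0.901), Slc1a5 (0.896), Cdo1 (0.882), Lipe (0.879), Slc7a10 (0.878), Prkar2b (0.876), Slc36a2 (0.874) and Klhdc7a (0.873) in GA. In SO they were Cdo1 (0.972), Ifi27l2a (0.972), Lgals12 (0.97), Prkar2b (0.965), Ankef1 (0.965), Mrap (0.963), Tmem45b (0.96) and Slc7a10 (0.954). Each r is over 43 libraries in which both genes share the depth of the library, and is given as a description. Of the 8 per muscle 3 were shared, Cdo1, Prkar2b and Slc7a10. Without the 3 libraries that stood apart, 4 of the 8 stayed in GA, where Cebpa then came first, and 5 in SO, and Ifi27l2a was the 1 gene in both. Without the GA library with most Adipoq, mouse 4 of JGT02 100 mg/kg, 5 of the 8 stayed, and without mouse 4 of JGT04 400 mg/kg, the SO library with most, all 8 did. Lipe encodes hormone-sensitive lipase, which breaks down stored fat, and Cdo1 cysteine dioxygenase. Cdo1 averaged 21.8 ± 2.13 CPM in DEX libraries and 7.61 ± 1.64 CPM in NT libraries of GA, and 40.9 ± 22.8 and 7.66 ± 3.23 CPM in SO.

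In the list of other white adipocyte genes most calls were higher after DEX. In GA 10 of 18 tested passed as higher and 1 as lower, with a median log2 change of 1.00, and in SO 12 of 18 were higher and 0 lower, with a median of 1.77. In GA the called genes of this list with the smallest adjusted p were Orm1, an acute phase protein (log2 3.88 ± 0.27, adjusted p = 3.84e-13), Tusc5 (1.83 ± 0.28, adjusted p = 1.51e-05) and Mrap (1.70 ± 0.32, adjusted p = 0.000434). In SO they were Mrap, an accessory protein of melanocortin receptors (3.25 ± 0.64, adjusted p = 0.000744), Cyp2e1 (3.01 ± 0.61, adjusted p = 0.000848) and Sncg (1.78 ± 0.36, adjusted p = 0.000893, edgeR). The gene lower in GA was Car3, a carbonic anhydrase that slow muscle fibres also make in quantity (log2 -0.64 ± 0.15, adjusted p = 0.00356). Car3 averaged 1919 CPM over all GA libraries, and the summed level of the list, which holds it, was 1712 to 2170 CPM in DEX against 2584 to 3056 CPM in NT libraries of GA, and 1802 to 3333 against 3198 to 3661 CPM in SO.

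Over all genes tested, 4.31% were called higher and 4.07% lower in GA, and 11.3% higher and 9.47% lower in SO, and the counts of this list and the following ones stand beside these shares. Of 14 genes of lipid synthesis 5 were higher in GA and none lower, and in SO 8 were higher and 1 lower. Agpat2 (log2 1.40 ± 0.28, adjusted p = 0.000793), the fatty acid synthase gene Fasn (1.42 ± 0.35, adjusted p = 0.00717) and Scd1 (1.10 ± 0.31, adjusted p = 0.0199) led in GA. In SO Fasn (2.43 ± 0.53, adjusted p = 0.00167), Scd2 (1.57 ± 0.34, adjusted p = 0.00167) and Acly (1.46 ± 0.32, adjusted p = 0.00189) rose, and Gpam, the first enzyme of triglyceride synthesis, fell (-1.59 ± 0.35, adjusted p = 0.00161, edgeR). Of 13 lipid droplet and lipolysis genes outside the members, 0 were higher and 1 lower in GA (Plin3, log2 -0.40 ± 0.08, adjusted p = 0.000741, edgeR). These GA counts lie near the shares of all genes. In SO 1 was higher (Bscl2, 0.74 ± 0.20, adjusted p = 0.00895, edgeR) and 3 lower (Plin3, Abhd5 and Fitm2). Lipe, of this list and among the genes most like Adipoq in GA, was not called there. It averaged 30.5 ± 4.04 CPM in DEX and 20.8 ± 3.65 CPM in NT libraries of GA. Of 10 glucocorticoid target genes 1 was higher and 1 lower in each muscle, Per1 being the higher one in both (log2 0.76 ± 0.21 with adjusted p = 0.0156 in GA, 0.61 ± 0.19 with adjusted p = 0.0175 in SO, edgeR), counts near the shares of all genes.

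Markers of other cells were read beside these results. All 7 Schwann cell and nerve genes were higher in SO after DEX, by a median log2 of 1.72, and none of the 7 passed in GA (edgeR, 1 at an unadjusted p under 0.05). Their summed level in SO was 803.5, 151, 700.0 and 96.2 CPM in DEX mice 1 to 4, against 192, 112, 112, 115 and 150.9 CPM in NT mice. DEX mice 1 and 3 were highest in both the nerve sum and Adipoq (99.8 and 94.5 CPM), mouse 4 was lowest in both (21.1 CPM), and mouse 2 lay between, with a nerve sum inside the NT range and 63.8 CPM of Adipoq. Inside the SO groups the mean of these 7 genes followed Adipoq at r = 0.426 and rho = 0.474 (permutation p = 0.00428 and 0.00136, n = 43, r = 0.521 without the 2 farthest libraries), and in GA at r = 0.371 and rho = 0.385 (permutation p = 0.0139 and 0.0113, r = 0.265 without them). The part of nerve or other tissue in the libraries in the SO values was not tested. Of 8 endothelial genes 3 were lower in GA and 2 higher in SO, with summed levels of 256 to 275 CPM in DEX against 302 to 330 CPM in NT libraries of GA, and 449 to 628.5 against 336 to 438 CPM in SO. The part of endothelial cells in the Fabp4 values was not tested. Of 6 macrophage genes tested none passed in either muscle (edgeR, 0 in GA and 1 in SO at an unadjusted p under 0.05), at sums of 39.2 to 54.6 CPM in DEX against 39.6 to 55.2 CPM in NT libraries of GA and 23.1 to 148 against 19.4 to 43.7 CPM in SO, and of 9 progenitor and fibroblast genes 1 was lower in GA and 1 higher and 1 lower in SO. In JGT02 100 mg/kg the highest macrophage sum was 1108 CPM in GA (group median 44.4) and 1300 CPM in SO (group median 23.6). Of 7 brown fat genes tested, 1 was higher and 0 lower after DEX in each muscle (edgeR). Cidea, also a member, is on this list and was the 1 called in GA, and it did not pass in SO. The brown fat gene Ucp1 was at 0 in all DEX and NT libraries of GA and not in all of those of SO, where its mean over all libraries was 0.00413 CPM.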

How the data were processed

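Paired 100-base reads from a directional kit were aligned with STAR 2.7.3a and quantified with RSEM 1.3.3 on GRCm38 (mm10), after FastQC 0.11.9 and Trim Galore 0.6.5, per the submitters' processing notes. Which annotation and strand setting were used, and whether genes were filtered, is not given in the sources used here. The deposited table holds the authors' expected counts per gene, which were rounded to whole numbers; reads shared between similar genes were split by RSEM's estimate. Genes passing filterByExpr were tested with edgeR 4.0.16 (TMM scaling, quasi-likelihood test, R 4.3.3), in 1 fit of the 9 groups per muscle and, for SO against GA, 1 fit of both muscles (15327 genes). Ratios and correlations used scipy 1.17.1. Alternatives were DESeq2 1.42.0 and its size factors, no filter, only the groups compared, the replicate block, a term for listed order, and omission of single or doubted libraries.

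The members and the lists were chosen with earlier results of these data known. All members were named; of each other list up to 3 genes per muscle and direction with the smallest adjusted p, and the 8 genes per muscle most correlated with Adipoq. The labels number the mice in each group, and p-values measure the spread between those mice. Intervals of 95% use the degrees of freedom of the edgeR test. The edgeR step was tested on simulated data. Gene positions are from GRCm38 annotation. Counts per library and gene set the precision: Cidea had 8 to 44 counts in GA and 39 to 234 in SO.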

Additional observations from a re-analysis of the deposited data

Results flagged for a closer look

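Of 180 gene and group pairs, 17 had 1 library far from the others of its group, by Dixon's criterion, and 10 libraries gave these 17. For independent, normally distributed values chance gives about 1 in 20. The members varied together inside the groups, so the 17 cannot be set against that rate. SO JGT03 400 mg/kg mouse 3 was flagged as the highest of its group for 6 genes. It had 103.8 CPM of Adipoq, 31.52 CPM of Lep, 52.04 CPM of Cidec, 81.93 CPM of Plin1, 391.5 CPM of Fabp4 and 202.0 CPM of Cfd. Its Thrsp, Retn and Pparg (33.8, 38.9 and 9.70 CPM) were also the highest of the group, without a flag. GA JGT02 400 mg/kg mouse 5 was flagged as the highest of its group for Adipoq (50.55 CPM), Lep (14.09 CPM) and Cfd (85.55 CPM). It was also highest, without a flag, for Cidec, Plin1, Fabp4, Thrsp, Retn and Pparg.

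Among the other libraries, GA JGT02 100 mg/kg mouse 1 was flagged as lowest for Lep (2.474 CPM) and SO JGT02 100 mg/kg mouse 5 as lowest for Cidea (1.618 CPM). Both of these stood apart in fibre genes. SO DEX mouse 4 was flagged as lowest for Fabp4 (179.5 CPM), and was the lowest of its group for every other member too. SO NT mouse 1 was flagged as lowest for Cfd (4.901 CPM), and was lowest for every other member but Fabp4 and Pparg. In the GA DEX group mouse 4 was flagged as highest for Thrsp (28.54 CPM) and mouse 1 as lowest for Retn (10.86 CPM). GA JGT04 100 mg/kg mouse 3 was flagged as highest for Plin1 (42.004 CPM), and GA JGT03 400 mg/kg mouse 5 as highest for Cfd (118.8 CPM).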

How the results depend on the processing

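With 1 library left out in turn, 5 to 7 members passed for DEX against NT in GA, where 8 passed with all libraries, and the cause was not tested. For the difference between muscles, 0 with all libraries, 2 passed without the 3 libraries that stood apart, 1 with only the groups compared, 1 without SO NT mouse 1 and SO DEX mouse 4, and 0 to 1 with single libraries left out. Of the GA tests against DEX, 0 with all groups in the fit, 1 passed without the 3 libraries and 8 with only the groups compared. Of the SO tests, also 0, 1 passed in DESeq2, 1 without the 3 libraries, 1 without SO NT mouse 1 and SO DEX mouse 4, and 0 to 2 with single libraries left out. Of the dose tests 1 passed with only the groups compared. Of the ratios to Adipoq, 12 with all libraries, 0 to 10 passed with single libraries left out. Over all 260 tests of a member, 25 calls were gained and 3 lost in 1879 refits under the other settings, and 9 gained and 36 lost in 3140 refits with 1 library left out. No called value changed sign in these refits. With mouse number as a replicate block 1 SO test passed (Thrsp in JGT03 400 mg/kg, adjusted p = 0.0466 in edgeR), and no other call changed. Same-numbered libraries of different groups had a median correlation of 0.00346 in GA and 0.0107 in SO, and GA and SO libraries of the same treatment and number one of 0.0175 (43 pairs, -0.711 to 0.59), so the pairing was not taken from the numbers.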
